A study of Homo sapiens with 16 samples.

Results

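Polysome loading at baseline was examined in 8 of the 16 libraries of the series, namely the 4 Input and the 4 Polysome libraries of the Ctrl cells, which were chosen by their sample labels. The cells were HEK293, a line derived from human embryonic kidney that is in wide use, and were grown in DMEM. Input is RNA of the cytoplasmic lysate and Polysome is RNA of the pooled heavy fractions of a sucrose gradient, each from 4 biological samples that the study calls independent. The labels describe the Ctrl cells as untreated, while the treatment protocol lists a control siRNA. The study calls the Ctrl of its Gemin5 immunoblot an siRNA control, so the labels and the study differ. Both have these cells without the Gemin5 siRNA. The other 8 libraries, from cells in which Gemin5 was silenced with an siRNA (siRNAG5), took no part in the comparison. They served as a separate set of libraries for a similar measure. Cells were kept in cycloheximide, a drug that stalls elongating ribosomes, before lysis.

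A polysome is an mRNA that carries several ribosomes, and it sinks deeper into a sucrose gradient than a single ribosome or an mRNA without ribosomes. An mRNA that is held back from initiation is therefore found mostly near the top of the gradient, and an mRNA that is read by many ribosomes at once is found near the bottom. Known ways of holding an mRNA back include a protein bound near the cap, as in the ferritin mRNAs, and an oligopyrimidine start (TOP), through which the mRNAs of the ribosomal proteins respond to nutrients and growth signals.

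All values compare a transcript's share of the polysomal RNA with its share of the cytoplasmic RNA. Levels are in CPM, read counts per gene relative to the TMM-scaled size of the library, and the log2 FC is Polysome minus Input from edgeR's quasi-likelihood test. A log2 FC above 0 means that the transcript was a larger part of the Polysome libraries than of the Input libraries, and neither the number of ribosomes per mRNA nor the absolute amount of RNA in a fraction was measured. A gene is called higher or lower where the Benjamini-Hochberg adjusted p was under 0.05 and the log2 FC was beyond 0.5 in size.

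The libraries held 11145324 to 18053614 reads on genes. Reads with more than 1 equally good place were not counted and amounted to 4.88 to 5.43% of an Input library and 21.2 to 32.8% of a Polysome library, and reads shared by overlapping genes made up 7.19 to 7.41% and 4.95 to 6.06%. The part of these reads in the differences given here was not tested. Across genes, log2 CPM of pairs of Input libraries correlated at 0.985 to 0.991, of pairs of Polysome libraries at 0.969 to 0.990, and of an Input with a Polysome library at 0.930 to 0.957, as a description over 13666 genes that are not independent. Libraries of Polysome varied more among themselves than those of Input, with biological coefficients of variation of 0.202 and 0.0705. Polysome library 1 had the lowest voom weight, 0.196, against 0.407 to 1.45 in the other Polysome and 1.42 to 2.21 in the Input libraries. Class counts or medians that moved by over 1.5 times without it are given both ways. In some measures Polysome libraries 1 and 2 also lay apart from 3 and 4. Class medians of replication-dependent histones were 0.91 and 1.22 against 0.46 and 0.45. Those of ribosomal protein mRNAs were -0.87 and -0.67 against -1.45 and -1.13. Polysome library 1 correlated at 0.983 with library 2 and at 0.972 and 0.969 with 3 and 4, while library 2 correlated with 3 at 0.984. The cause of this split was not tested. Of 10 markers of HEK293 cells 9 were tested, among them VIM, KRT8, KRT18, LIN28B and the neurofilament genes NEFL and NEFM, while PAX8 had 1 read in Input and 0 in Polysome.

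Reads of other cell types were few. The 146 liver and plasma-protein genes held 0.00883 to 0.0295% of the reads of an Input library and 0.0300 to 0.0476% of a Polysome library, with 10 and 7 of them at 0. They were uneven, with 0, 0, 585 and 414 reads of ALB in Input libraries 1 to 4 and 584, 484, 482 and 450 in Polysome libraries 1 to 4. The source of such reads was not tested. Whether they came from cells at all, from few with much of this RNA or from many with little, cannot be told apart. The 59 of these genes that were tested were set aside from every count. The 17 blood genes held at most 0.000956% of a library (7 at 0 in Input and 4 in Polysome, with 7 and 57 reads of HBB), the 13 brain genes 0.000911 to 0.00133% (1 and 3 at 0, with 10 and 14 reads of GFAP and 0 and 0 of MOG), and the 13 fibroblast and muscle genes 0.00146 to 0.00212% (2 and 1 at 0, with 11 and 19 reads of DES).

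The sequences shown first belong to the iron-storage, ribosomal protein and histone mRNAs on which the results below turn, and all are read from GRCh38 on the strand of the gene at the canonical GENCODE transcript. The iron-responsive element (IRE) of the ferritin mRNAs is a hairpin in the 5′ UTR to which iron regulatory proteins bind, and its loop is in capitals. That of FTH1 lies at chr11:61967574-61967601 (minus strand, from base 34 of the transcript) and that of FTL at chr19:48965336-48965363 (plus strand, from base 28).
FTH1: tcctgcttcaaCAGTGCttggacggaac
FTL: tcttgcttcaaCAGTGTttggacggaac

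A further set holds transcript starts of ribosomal protein mRNAs and of TPT1, with the run of pyrimidines that begins with C in capitals. They are RPS2 (chr16:1964807-1964826, minus), RPSA (chr3:39406720-39406739, plus), RPLP1 (chr15:69452818-69452837, plus) and TPT1 (chr13:45341164-45341183, minus), which were far lower in Polysome, and FAU (chr11:65122115-65122134, minus) and RPS26 (chr12:56041918-56041937, plus), which were not called.
RPS2: CTTCTTTTCCgacaaaacac
RPSA: CTTTTCCgtgctacctgcag
RPLP1: CCCCTTTCCTCagctgccgc
TPT1: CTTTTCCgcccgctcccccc
FAU: CTCTTTCTCgactccatctt
RPS26: gattttcttccgccatccgg

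The last set holds the stem-loop that ends the mRNAs of replication-dependent histones in place of a poly(A) tail, in capitals. H1-4 (chr6:26157090-26157110, plus) and H4C8 (chr6:26285131-26285151, minus) had the largest log2 FC among these histones at a mean of at least 1 CPM, and H2AC25 (chr1:228457369-228457389, minus) had the smallest.
H1-4: ccaaaGGCTCTTTTCAGAGCC
H4C8: ccaaaGGCCCTTTTCAGGGCC
H2AC25: ataaaGGCTCTTTTCAGAGCC

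Of 13607 genes tested, 2841 (20.9%) were higher and 2566 (18.9%) were lower in Polysome, 39.7% in all, and these shares are the background against which the members of a class are read. The log2 FC had a median of -0.03 and quartiles of -0.42 and 0.45. A log2 FC beyond 1 was reached by 1337 of the higher and 1044 of the lower genes, and one beyond 2 by 142 and 126. The 4 Polysome libraries did not overlap the 4 Input libraries for 6016 genes (44.2%), of which 2966 were higher and 3050 lower, and these included 4780 of the 5407 genes with a call. Among the 11685 protein-coding genes, 2739 (23.4%) were higher and 1854 (15.9%) lower. In the siRNAG5 libraries, 2810 of the 2841 genes (98.9%) had a Polysome value above Input and 2562 of the 2566 (99.8%) a value below it, and the differences in Ctrl and in siRNAG5 cells had a Pearson r of 0.923 across genes, as a description. An siRNAG5 difference is Polysome minus Input in mean log2 CPM, scaled over all 16 libraries, and not an edgeR log2 FC. Its median over all genes tested was -0.14, so its centre lay below that of the Ctrl values.

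**Figure D1:**
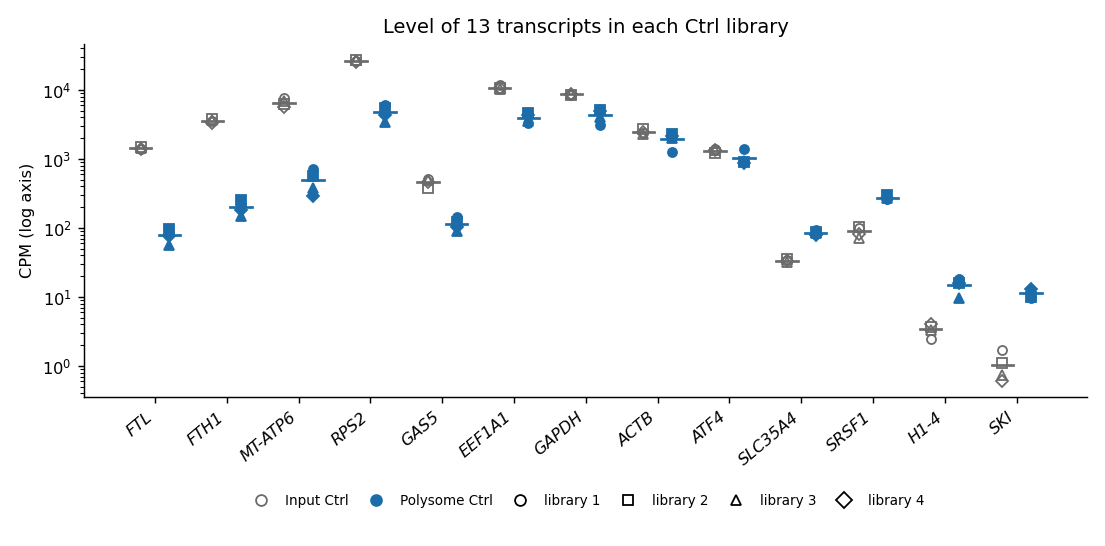
CPM (log axis) of 13 transcripts in the 8 Ctrl libraries, with open grey symbols for Input, filled blue symbols for Polysome, a symbol shape for each library number and a bar at the mean of 4 libraries. FTL and FTH1 fell from 1391 to 1471 and 3323 to 3738 CPM to 56.0 to 94.9 and 151 to 249 CPM, ATF4 overlapped between the fractions, and SKI stood at 0.605 to 1.72 CPM in Input and at 9.54 to 12.9 CPM in Polysome.

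The ferritin mRNAs FTH1 and FTL were the protein-coding nuclear transcripts farthest below their Input level. Ferritin stores iron in a shell of heavy (FTH1) and light (FTL) chains. FTH1 (ENSG00000167996, chromosome 11 from 61959718 to 61967634) had 3501, 3738, 3616 and 3323 CPM in the Input libraries and 212, 249, 151 and 181 CPM in the Polysome libraries. FTL (ENSG00000087086, chromosome 19 from 48965309 to 48966879) had 1391, 1471, 1452 and 1396 CPM in Input and 91.3, 94.9, 56.0 and 75.8 CPM in Polysome. All 4 Polysome libraries were far below all 4 Input libraries for both genes. The log2 FC was -4.16 for FTH1 (standard error 0.19, adjusted p 1.55e-09 by quasi-likelihood test in edgeR), which is 17.9-fold lower, and -4.17 for FTL (standard error 0.18, adjusted p 1.55e-09 in the same test). In siRNAG5 cells the differences were -3.91 and -4.24. Together the 2 mRNAs held 0.413 ± 0.00928% of the Input reads and 0.0329 ± 0.00356% of the Polysome reads (SD, n = 4 each). FTH1 has processed pseudogenes with which it may share reads, since the counting kept reads with a single best place only.

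The IRE pattern, a C, 5 bases that pair with 5 bases after the loop, and the loop CAGTGN, was found on the sense strand of the 5′ UTR of 9 of 11685 protein-coding transcripts (0.0770%). FTH1, FTL and SLC40A1 were among those lower in Polysome, ADAR was higher with a log2 FC of 1.96, and DUSP9 (0.36), ZNF782 (0.34), PRPF18 (0.09) and ZER1 (-0.23) were not called. SLC40A1, the iron exporter ferroportin, lay between 1.56 and 2.45 CPM in Input and between 0.934 and 1.47 CPM in Polysome. Its log2 FC of -0.78 (edgeR adjusted p 0.0194) was called in 5 of the 8 fits that left out 1 library. In the list of 8 iron-responsive mRNAs, 4 were lower and 2 higher, with a median of -0.52. The higher ones were EPAS1 (log2 FC 1.19), a transcription factor of the response to low oxygen, and CDC42BPA (1.05), a kinase. TFRC, the transferrin receptor, whose iron-responsive elements lie in the 3′ UTR, had a log2 FC of -0.26 (edgeR adjusted p 0.178), and SLC11A2, an iron importer, one of -0.10, and their libraries overlapped.

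Cytosolic ribosomal protein mRNAs were lower as a class. They held 33.02 ± 0.485% of all reads on genes in Input and 21.7 ± 2.51% in Polysome (SD, n = 4 each). Of 79 tested, 75 were lower and 0 higher, with a median log2 FC of -1.01, against 15.9% of protein-coding genes lower. Without a limit on the adjusted p all 79 had a log2 FC below 0, from -2.45 to -0.26. Taken for each Polysome library against the mean of Input, the class median was -0.87, -0.67, -1.45 and -1.13, so the libraries differed in its size and not in its sign. In siRNAG5 cells it was -1.85.

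RPS2 (ENSG00000140988, chromosome 16 from 1962058 to 1964841), a protein of the small subunit, was the lowest of the class. It had 26253, 26675, 27029 and 25448 CPM in Input and 6119, 5528, 3444 and 4263 CPM in Polysome, which is 5.45-fold lower (log2 FC -2.45, standard error 0.22, edgeR adjusted p 5.15e-07). RPSA, also of the small subunit, had 6142 to 6483 CPM in Input and 1237 to 1947 CPM in Polysome (log2 FC -2.04), and RPLP1, of the stalk of the large subunit, 9228 to 10004 and 2039.9 to 3139 CPM (-1.86). In each of these the groups were apart by a wide margin. RPL3, of the large subunit, had 6572 to 6955 CPM in Input and 2663 to 3519 CPM in Polysome (-1.12). RPL32 had a log2 FC of -1.08, RPL21 of -0.80 and RPS9 of -0.70. RPL35 lay near the limit, with 4189 to 4576 CPM in Input and 2267 to 3822 CPM in Polysome, a log2 FC of -0.53 (edgeR adjusted p 0.0255), and it was called in 3 of the 8 fits that left out 1 library.

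The mRNAs at the other end of the class overlapped between the fractions. FAU, which encodes a small-subunit protein fused to a ubiquitin-like protein, had 1000.1, 1062, 1122 and 991 CPM in Input and 964, 1082, 623 and 752 CPM in Polysome (log2 FC -0.29, edgeR adjusted p 0.176). RPS26 had 1171, 1245, 1276 and 1167 CPM in Input and 1195, 1312, 718 and 845 CPM in Polysome (log2 FC -0.26, edgeR adjusted p 0.262). Polysome libraries 3 and 4 lay below the Input range in both genes. Library 2 lay within it for FAU and above it for RPS26, and library 1 below it for FAU and within it for RPS26.

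A start of C followed by at least 4 pyrimidines, the first bases of the canonical transcript on the sense strand, was present in 60 of the 79 ribosomal protein mRNAs (75.9%) and in 644 of 11685 protein-coding transcripts (5.51%). Ribosomal protein mRNAs with this start had a median log2 FC of -1.01 with 58 of 60 lower, and the 19 without it a median of -1.03 with 17 lower. FAU has the start and RPS26 does not. Annotated starts are not measured starts, and the start used in these cells was not determined. Outside the ribosomal protein and other TOP lists, 563 transcripts had this start, of which 118 (20.96%) were lower and 102 (18.1%) higher, with a median of -0.08.

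The list of other TOP mRNAs, mostly elongation and initiation factors and RNA-binding proteins, had 13 of 23 members lower and 0 higher, with a median of -0.91. TPT1, the translationally controlled tumour protein, was the lowest, with 4233 to 5181 CPM in Input and 1009 to 1583 CPM in Polysome (log2 FC -1.85, edgeR adjusted p 9.98e-07). EIF3L, a subunit of the initiation factor eIF3, followed at -1.69. EEF1A1, which brings aminoacyl-tRNA to the ribosome, had 11727, 10592, 10303 and 10532 CPM in Input and 3271, 4614, 3504 and 4343 CPM in Polysome (log2 FC -1.46, edgeR adjusted p 1.08e-05). EEF2, the translocase, was at -1.41, and RACK1, a scaffold protein of the small subunit, at -1.52, each without overlap. EIF4B (0.02), EIF3A (-0.04) and PABPC1, the poly(A) binding protein (-0.19), had values that overlapped between the fractions.

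Processed pseudogenes, retrocopies of mRNAs, were lower in 396 of 611 tested and higher in 6, or in 10 without Input library 1 or Polysome library 4, with a median of -1.01. The 261 that are copies of ribosomal protein genes had 237 lower and 0 higher (median -1.21), and the other 350 had 159 lower and 6 higher (median -0.64). Such a copy can take reads of its parent gene, so these values are not independent of those of the parents. Without the filter on low counts the median of all processed pseudogenes was -0.55. Their share of the reads was 0.729 ± 0.0446% in Input and 0.401 ± 0.0464% in Polysome (SD, n = 4 each).

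The mRNAs of the mitochondrial genome, which are translated by mitochondrial ribosomes inside the organelle, were lower without exception. All 13 were called lower, and no Polysome library overlapped an Input library for any of them. Their share of the reads was 3.91 ± 0.356% in Input and 0.846 ± 0.318% in Polysome (SD, n = 4 each). The median log2 FC was -3.18, and it was -2.55, -2.85, -3.34 and -3.87 in Polysome libraries 1 to 4.

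MT-ND3, of complex I, had the largest difference, with 1262, 1341, 1333 and 1052 CPM in Input and 79.4, 92.4, 54.2 and 51.0 CPM in Polysome (log2 FC -4.17, adjusted p 2.67e-09 by quasi-likelihood test in edgeR). MT-ATP6, of the ATP synthase, had 7489, 6207, 6800 and 5625 CPM in Input and 708, 572, 378 and 289.7 CPM in Polysome (log2 FC -3.75). At the other end, MT-CO1 (-1.60), MT-CYB (-1.54) and MT-ND5 (-1.40) had smaller differences, with 561 to 1653 CPM of MT-CYB in Polysome against 2685 to 3295 CPM in Input. The 13 mRNAs thus spanned a wide range of log2 FC although they share 1 organelle. MT-ND6, the only one of them on the light strand, was at -2.11. The nuclear-encoded subunits of the respiratory chain did not move with them. Of 77 tested, 10 were lower and 0 higher, with a median of -0.13, where 15.9% of protein-coding genes were lower. SDHA (-1.43), of complex II, was the lowest of them. SDHC (0.44) and NDUFA5 (0.37) were the highest and were not called. Of 80 mitochondrial ribosomal protein mRNAs 14 were lower, with MRPS31 (-1.25) and MRPS9 (-1.02) at the low end, and 3 were higher, among them MRPL30 (0.97) and MRPS17 (0.90), with a median of -0.13. Both medians moved with single libraries, to -0.22 and -0.20 without Polysome library 1, -0.24 and -0.25 without library 2 and -0.0155 and -0.0144 without library 3 for the respiratory chain and the mitochondrial ribosomal proteins, and that of the respiratory chain to -0.0649 without library 4.

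**Figure D2:**
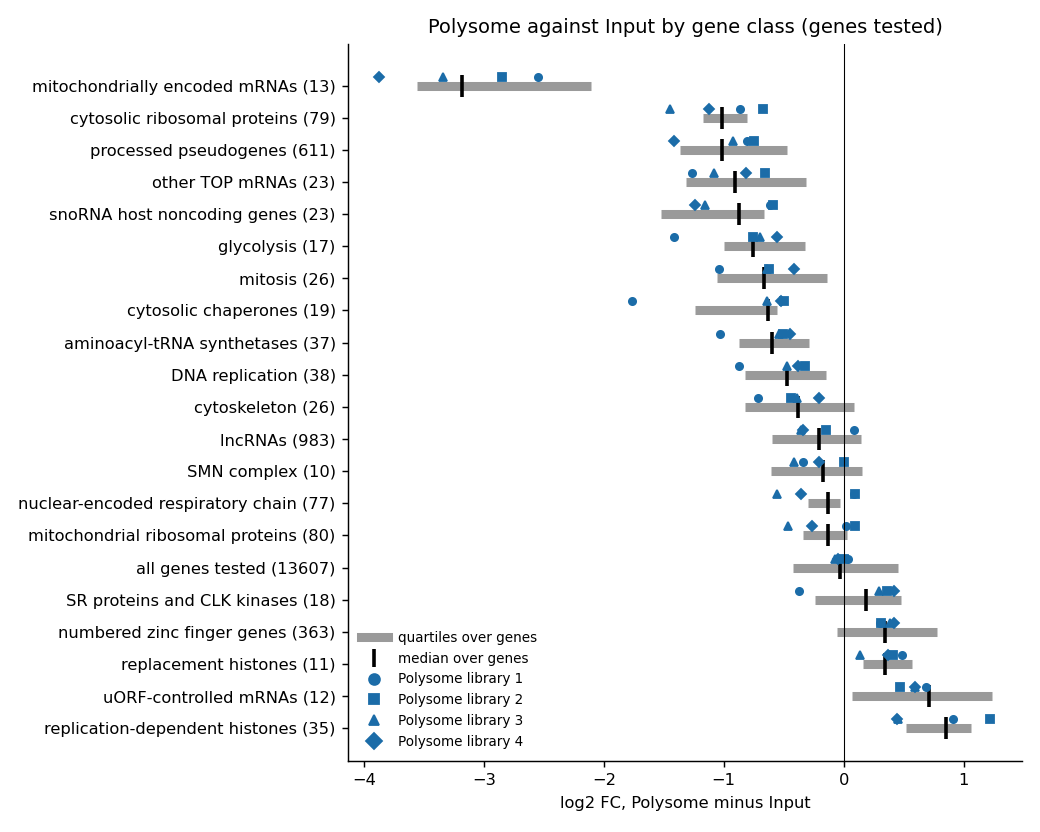
Log2 FC of Polysome minus Input for 21 classes of genes, with the number tested in brackets, a grey bar from the lower to the upper quartile over genes, a black tick at the median and blue symbols at the class median of each Polysome library against the mean of the Input libraries. Mitochondrially encoded mRNAs (median -3.18) and ribosomal protein mRNAs (-1.01) lie to the left in all 4 libraries, and replication-dependent histones (0.85) to the right. Polysome library 1 stands apart for cytosolic chaperones (-1.76) and is also the lowest for glycolysis, mitosis, aminoacyl-tRNA synthetases and DNA replication.

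Several housekeeping classes were lower in most of their members. Such classes were abundant, with median levels in Input siRNAG5 from 6.36 (aminoacyl-tRNA synthetases) to 8.99 log2 CPM (cytosolic chaperones). Of all protein-coding genes 15.9% were lower. Those between 5.97 and 7.12 log2 CPM had 22.9% lower, 6.34% higher and a median of -0.17. Those of 7.12 log2 CPM or more had 32.0% lower, 3.68% higher and a median of -0.27. Of 17 glycolysis genes 11 were lower and 0 higher (median -0.75). PFKP, a phosphofructokinase, was at -1.31 and ENO1, an enolase, at -1.07. PGAM1 (0.14) and HK2 (0.33), a phosphoglycerate mutase and a hexokinase, overlapped between the fractions. GAPDH had 8509, 8333, 8802 and 8796 CPM in Input and 3083, 5097, 4064 and 5004 CPM in Polysome (log2 FC -0.998, adjusted p 0.000441 by quasi-likelihood test in edgeR). ACTB, of the actin cytoskeleton and often a reference gene like GAPDH, had 2383, 2699.5, 2316 and 2483 CPM in Input and 1267, 2290.2, 1983 and 2125 CPM in Polysome. Its libraries did not overlap, but the log2 FC of -0.37 did not pass (edgeR adjusted p 0.109).

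Aminoacyl-tRNA synthetases, which charge tRNAs with amino acids, had 24 of 37 members lower and 1 higher, with a median of -0.60. QARS1 had 184 to 203 CPM in Input and 55.6 to 73.0 CPM in Polysome (log2 FC -1.58), and MARS1 was at -1.48. Both charge tRNAs in the cytosol. The only member called higher was EARS2 (0.64), an enzyme of mitochondria, with 2 higher without Polysome library 1, and MARS2, also of mitochondria, had 0.48 and was not called.

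Of 19 cytosolic chaperones 15 were lower and 1 higher, with a median of -0.63. Polysome library 1 had a class median of -1.76 and the other 3 libraries had -0.50 to -0.64, and without library 1 there were 10 lower and a median of -0.53. Library 1 was also the lowest for glycolysis (-1.41, others -0.76 to -0.55) and aminoacyl-tRNA synthetases (-1.03, others -0.54 to -0.45). The same held for mitosis (-1.04, others -0.64 to -0.41) and DNA replication (-0.87, others -0.47 to -0.32). Without it 19 synthetases were lower. CCT3, a subunit of the chaperonin that folds actin and tubulin, had 1220.4 to 1360 CPM in Input and 312, 534, 524 and 566 CPM in Polysome (log2 FC -1.42), and HSP90AB1 was at -1.37. DNAJB1 was the higher one (0.54), and BAG3 (-0.40) was not called. Among 20 chaperones and folding enzymes of the endoplasmic reticulum, 6 were lower (30.0%), with HSP90B1 at -1.58 and HSPA5 at -1.30, and the median was -0.21. Among protein-coding genes 15.9% were lower and 23.4% higher. In this list 2 were higher (10.0%), or 1 in 6 of the 8 fits that left out 1 library. ERO1B (0.54) was 1 of these and SEL1L (0.87), which overlapped between the fractions, the other. Of 35 proteasome subunits 13 were lower (37.1%) and 1 higher (2.86%), with a median of -0.39. Their median level was 7.81 log2 CPM in Input siRNAG5. Protein-coding genes of 7.12 log2 CPM or more there had 32.0% lower, 3.68% higher and a median of -0.27. The proteasome genes were therefore close to protein-coding genes of a like level. PSMD1 (-1.41), of the regulatory particle, was the lowest and PSMA2 (0.52), of the core, the higher one. The number of proteasome genes higher was 4 without Polysome library 1, 2 without Input library 1, Input library 2 or Polysome library 3, and 0 without Input library 4 or Polysome library 2.

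Genes of mitosis had 16 of 26 members lower and 1 higher (median -0.66), or 2 higher without Input library 2, Polysome library 3 or Polysome library 4. KIF20A, a kinesin of cytokinesis, was at -1.65 and CENPE, a kinesin of the kinetochore, at -1.45. CDC25B (0.61), a phosphatase that activates the mitotic kinase, was higher. BIRC5 (0.49, edgeR adjusted p 0.00419) missed the limit on the log2 FC. Of 38 DNA replication genes 17 were lower, such as MCM7 (-1.49) of the replicative helicase and POLD1 (-1.40), a DNA polymerase, and 4 were higher. GINS1 and GINS4 of the helicase complex were at 1.71 and 1.40. GINS1 had 7.16 to 9.75 CPM in Input and 23.3 to 33.2 CPM in Polysome. Without Polysome library 1, 7 replication genes were higher.

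Of 26 cytoskeleton genes 11 were lower and 3 higher (median -0.38). DYNC1H1, the heavy chain of dynein, was the lowest, with 18.7 to 26.4 CPM in Input and 3.68 to 8.22 CPM in Polysome (log2 FC -1.75, edgeR adjusted p 6.21e-06), and TUBA1C, an alpha-tubulin, was at -1.15. TPM3 (0.93) and TPM4 (0.79), tropomyosins, were higher. Among 60 kinesins, dyneins and myosins, 12 were higher, such as KIF26A (2.01) and KIF3C (1.83), and 16 lower (median -0.13, or -0.08, -0.05 and -0.21 without Polysome library 1, 2 or 4). Of 28 collagen, laminin and integrin genes 11 were lower and 0 higher (median -0.35), or 1 higher without Polysome library 1 or any 1 Input library, with the laminin chains LAMA5 at -1.90 and LAMB2 at -1.54, while the 2 with the largest values, ITGAV (0.47) and COL5A1 (0.43), overlapped between the fractions.

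Genes of cholesterol synthesis and uptake had 11 of 24 members lower and 1 higher (median -0.50). SREBF1, a transcription factor of lipid synthesis, was at -1.28, and its relative SREBF2 was the higher one at 0.79, with 15.8, 17.3, 22.0 and 20.4 CPM in Input and 28.2, 25.6, 39.3 and 36.8 CPM in Polysome. DHCR7, an enzyme of the pathway, was at -1.08 and IDI1 at 0.26 without a call. Of 19 selenoprotein genes 5 were lower and 3 higher (median 0.15), with SELENOW at -1.92 and SELENOO at -1.03 against TXNRD1, a thioredoxin reductase, at 0.98 and SEPHS2, an enzyme that makes selenophosphate, at 0.78. Without Polysome library 1 or library 2 there were 8 lower, and without library 3 or 4 there were 5 and 6 higher, and the median was 0.05 without library 1 and 0.02 without library 4. Of 206 SLC transporters 45 were lower and 26 higher (median -0.15). SLC7A3, an amino acid transporter, was the lowest at -1.96, followed by SLC25A6, which exchanges ADP and ATP, at -1.66, and SLC41A1, a magnesium transporter, was the highest at 2.27, ahead of SLC24A1 at 1.92. Of 154 TMEM genes 27 were lower (17.5%) and 12 higher (7.79%), with a median of -0.18, or -0.28 and -0.096 without Polysome library 1 or 3. They ranged from TMEM219 (-1.88) and TMEM54 (-1.62) to TMEM263 (1.17) and TMEM127 (1.33). Among protein-coding genes 15.9% were lower and 23.4% higher, so the share of TMEM genes lower was near that of all.

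The 10 protein-coding genes with the smallest log2 FC, outside the mitochondrial mRNAs, were FTL, FTH1, C12orf75, FRS3, ST6GALNAC6, AGAP9, DNASE1, RPS2, NOP56 and PRPF8. C12orf75, a short reading frame of 192 coding bases, had 96.7, 101.4, 94.7 and 89.5 CPM in Input and 16.9, 16.3, 11.3 and 11.1 CPM in Polysome (log2 FC -2.79, adjusted p 5.32e-09 by quasi-likelihood test in edgeR). ST6GALNAC6, a sialyltransferase, had 28.1 to 30.8 CPM in Input and 4.17 to 5.51 CPM in Polysome (-2.58). PRPF8, the large core protein of the spliceosome with 7008 coding bases, had 139, 170.3, 161 and 171 CPM in Input and 34.2, 26.9, 26.8 and 37.2 CPM in Polysome (-2.36, edgeR adjusted p 1.43e-08).

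NOP56, a core protein of box C/D small nucleolar RNPs, had 589 to 669 CPM in Input and 91.6 to 131 CPM in Polysome (-2.40). FRS3 (-2.72), an adaptor of growth factor receptors, AGAP9 (-2.56) and DNASE1 (-2.48), a nuclease, rested on fewer reads, with 42, 31 and 65 reads over the 4 Polysome libraries against 219, 147 and 289 over the 4 Input libraries. AGAP9 belongs to a family of near-identical genes between which reads can be split or lost. Among these genes the 3′ UTR was 40 bases long in RPS2, 99 in NOP56, 173 in PRPF8, 144 in FTL and 142 in DNASE1, against 918 in C12orf75 and 1278 in ST6GALNAC6.

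Replication-dependent histone mRNAs, which are made in S phase, stood on the other side. Of 35 tested, 21 were higher and 0 lower, with a median of 0.85, against 23.4% of protein-coding genes higher. The list holds 65 genes, and those tested were scarce, with a median level of 0.715 log2 CPM in Input siRNAG5. Protein-coding genes up to 0.955 log2 CPM there had 37.6% higher, 3.08% lower and a median of 0.52. Scarce genes passed the filter on low counts more readily where they were high in Polysome. The histone count and median can therefore lean upwards by construction. The class median was 0.91, 1.22, 0.46 and 0.45 in Polysome libraries 1 to 4, and without Polysome library 2 the number higher was 13, with a median of 0.63. In siRNAG5 cells the median difference was 0.22. The libraries were made from polyadenylated RNA, and these mRNAs normally lack a poly(A) tail, so their reads were few, at 0.0178 ± 0.00132% in Input and 0.0342 ± 0.00333% in Polysome (SD, n = 4 each). How far the reads stand for the mature form was not tested. Histone genes are also close copies of each other.

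H1-4, a linker histone (ENSG00000168298, chromosome 6 from 26156329 to 26157115), had 2.45, 3.68, 3.33 and 4.06 CPM in Input and 18.2, 16.1, 9.62 and 15.7 CPM in Polysome, without overlap (log2 FC 2.12, standard error 0.21, adjusted p 1.25e-06 by quasi-likelihood test in edgeR). H4C8, a core histone, had 0.346 to 1.14 CPM in Input and 2.15 to 3.65 CPM in Polysome (1.77). H2AC25 had 43.2, 43.4, 47.0 and 43.9 CPM in Input and 41.0, 45.0, 30.1 and 36.1 CPM in Polysome, and the groups overlapped (-0.22, edgeR adjusted p 0.171). H2BC5 was at 0.13 and also overlapped. By family, 3 of 3 H1 genes were higher (median 1.37), 5 of 9 H2A (0.88), 5 of 10 H2B (0.62), 3 of 6 H3 (0.82) and 5 of 7 H4 genes (1.01).

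The histone stem-loop, searched on the sense strand in the first 300 bases of the 3′ UTR, was found in 35 of 35 of these mRNAs (100%) and in 2 of 11650 other protein-coding transcripts (0.0172%). The 2 others were H2AX (0.14, not called), a histone of DNA repair, and BTBD10 (0.63, higher). H2AC25 has the same 16 bases as H1-4, so the sequence did not separate the highest from the lowest member. The 11 replacement histones, which are made throughout the cell cycle from polyadenylated mRNAs, had 3 higher and 0 lower (median 0.35). The share higher, 27.3%, was near the 23.4% of protein-coding genes. H3-3B (0.85) and H1-10 (0.69) were among those higher. H2AZ1 (0.45), H3-3A (0.44), CENPA (0.35), MACROH2A1 (0.34), MACROH2A2 (0.18), H2AX, H2AJ (-0.07) and H2AZ2 (-0.10) were not called.

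mRNAs with regulatory upstream open reading frames (uORFs), short frames ahead of the main one that ribosomes can read first, were higher in 7 of 12 cases and lower in 0, with a median of 0.71. Among protein-coding genes 23.4% were higher and 15.9% lower. The list had a median 5′ UTR of 350 bases. Protein-coding genes with a 5′ UTR of 304 to 446 bases had 36.6% higher, 7.53% lower and a median of 0.34. The part of 5′ UTR length in the values of the list was not tested. SLC35A4, whose uORF encodes a protein of its own, had 33.8, 35.0, 31.5 and 33.5 CPM in Input and 92.1, 86.6, 85.4 and 77.5 CPM in Polysome (log2 FC 1.35, standard error 0.11, adjusted p 2.1e-07 by quasi-likelihood test in edgeR). MIEF1 (1.36), which also carries a coding uORF and acts in mitochondrial division, PPP1R15B (1.25), a regulatory subunit that directs dephosphorylation of eIF2α, and AZIN1 (1.23), the antizyme inhibitor, were also higher, each without overlap. ATF5 (0.91), IBTK (0.90) and IFRD1 (0.52) were higher too, and IFRD1 was called in 5 of the 8 fits that left out 1 library.

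ATF4, the transcription factor of the integrated stress response, was not called. It had 1385, 1200.3, 1329 and 1352 CPM in Input and 1369.7, 912, 921 and 874 CPM in Polysome (log2 FC -0.37, edgeR adjusted p 0.0744). Polysome library 1 lay within the Input range and the other 3 below it, and without library 1 ATF4 was lower, at -0.54 (edgeR adjusted p 0.0016). DDIT3, a target of ATF4, had 8.18 to 16.9 CPM in Input and 6.72 to 14.3 CPM in Polysome (-0.43, edgeR adjusted p 0.152), and without Polysome library 1 it was at -0.59 (edgeR adjusted p 0.0308). Without that library the list thus had 6 higher and 2 lower, and without Input library 2 it had 1 lower. PPP1R15A (-0.00), AMD1 (0.09), an enzyme of polyamine synthesis, and UCP2 (0.18) overlapped between the fractions.

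The number of ATGs in the 5′ UTR moved with the log2 FC across all protein-coding genes. The median was -0.11 in 6895 genes without an upstream ATG, 0.13 in 2262 with 1, 0.28 in 1069 with 2, 0.43 in 550 with 3 and 0.52 in 876 with 4 or more. The share of genes higher went over these classes from 15.98 to 27.98, 33.3, 42.0 and 46.3%, and the share lower went from 20.7 to 11.8, 8.23, 5.45 and 3.77%. In siRNAG5 cells the medians were -0.24, 0.05, 0.22, 0.35 and 0.50. Transcripts with more upstream ATGs also had longer UTRs, with a median 5′ UTR of 90 bases and 3′ UTR of 1138 bases at 0 ATGs and of 518 and 1987 bases at 4 or more. Among genes of the longest of 3 equal groups by 5′ UTR length (213 bases or more) the median was 0.18, 0.31 and 0.46 for 0, 1 and 2 or more ATGs, and among those of the shortest group (up to 91 bases) -0.17, -0.08 and -0.03, the last over 52 genes.

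The largest log2 FC among protein-coding genes belonged to SKI, RAD54L2, NFIX, TEAD1, RTL6, PPP1R9B, ZKSCAN8, TP53INP2, FBXL19 and LASP1. SKI (ENSG00000157933, chromosome 1 from 2227388 to 2310213), a repressor of TGF-β signalling, had 1.72, 1.09, 0.732 and 0.605 CPM in Input and 9.54, 9.83, 12.8 and 12.9 CPM in Polysome, which is 10.9-fold higher (log2 FC 3.44, standard error 0.25, adjusted p 9.53e-08 by quasi-likelihood test in edgeR). RAD54L2, a chromatin helicase, had 0.894 to 0.954 CPM in Input and 6.66 to 13.9 CPM in Polysome (3.43). TEAD1, the DNA-binding partner of YAP, had 0.682 to 1.06 and 6.404 to 11.8 CPM (3.34), and NFIX, a transcription factor, 0.325 to 0.545 and 3.23 to 5.43 CPM (3.37). The choice of these genes required a mean of at least 1 CPM and no overlap, and NFIX and TEAD1, among others, reached that mean only through Polysome.

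These transcripts were scarce in Input, with 15 reads of ZKSCAN8, 22 of NFIX, 44 of TEAD1, 46 of RAD54L2 and 51 of SKI over the 4 Input libraries, against 152, 287, 563, 625 and 708 over the 4 Polysome libraries. The best covered of the 10 were FBXL19 (2.91), with 131 and 1266 reads, and LASP1 (2.87), an actin-binding protein, with 130 and 1200 reads. RTL6 (3.12), PPP1R9B (3.04), ZKSCAN8 (2.97), a zinc finger protein, and TP53INP2 (2.92), a factor of autophagy, lay between. The 3′ UTR was 1553 bases in FBXL19 and 1594 in PPP1R9B, 2992 to 7515 bases in the other 8, and longest in TEAD1, where all protein-coding genes had a median of 1348 bases.

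**Figure D3:**
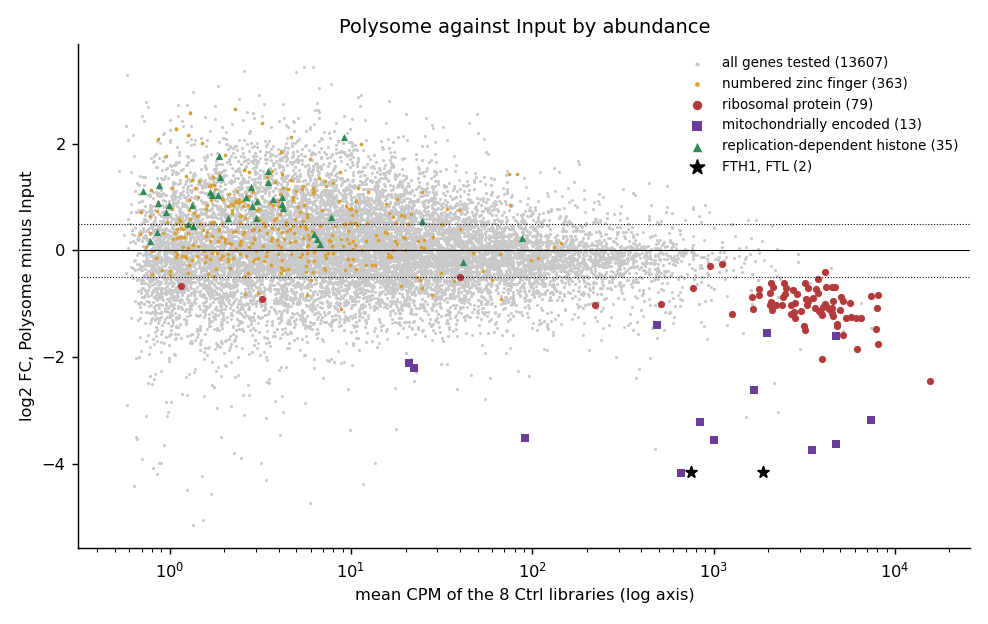
Log2 FC of Polysome minus Input against the mean CPM of the 8 Ctrl libraries (log axis) for 13607 genes in grey, with 363 numbered zinc finger genes, 79 ribosomal protein genes, 13 mitochondrially encoded mRNAs, 35 replication-dependent histones and FTH1 and FTL in colour, and dotted lines at 0.5 on either side of 0. Ribosomal protein mRNAs lie below 0 at the abundant end, the mitochondrial and ferritin mRNAs far below them, and most zinc finger and histone mRNAs above 0 at the scarce end.

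Numbered zinc finger genes, most of them DNA-binding repressors, were higher in 126 of 363 cases (34.7%) and lower in 12 (3.31%). Their median was 0.34, and among all protein-coding genes 23.4 and 15.9% were higher and lower. The list was scarce, with a median level of 1.74 log2 CPM in Input siRNAG5. Protein-coding genes between 0.955 and 1.77 log2 CPM there had 38.4% higher, 6.42% lower and a median of 0.37. The zinc finger genes were therefore close to protein-coding genes of a like level. Their share of the reads was 0.240 ± 0.00795% in Input and 0.415 ± 0.0572% in Polysome (SD, n = 4 each). ZNF609 had 0.545 to 0.732 CPM in Input and 2.92 to 5.46 CPM in Polysome (log2 FC 2.64), and ZNF8 was at 2.58, while ZNF692 (-1.11) and ZNF32 (-0.92) were the lowest. The 165 on chromosome 19 had 45 higher (27.3%) and a median of 0.31, and the 198 on other chromosomes had 81 higher (40.9%) and a median of 0.39.

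SR proteins, which direct splicing, and the CLK kinases that phosphorylate them had 4 of 18 members higher (22.2%) and 2 lower (11.1%), with a median of 0.19. These shares were near those of all protein-coding genes, with 23.4% higher and 15.9% lower. The class median was -0.38 in Polysome library 1 and 0.30 to 0.42 in the others, and without library 1 there were 6 higher with a median of 0.35, against 0.12 without library 2. SRSF1 (ENSG00000136450, chromosome 17 from 58000919 to 58007346) had 99.3, 101.3, 71.6 and 82.4 CPM in Input and 259, 294, 270.3 and 267 CPM in Polysome (log2 FC 1.62, adjusted p 2.54e-07 by quasi-likelihood test in edgeR), and SRSF8 was at 0.81. The kinases CLK3 (-0.89) and CLK1 (-0.72) were the lower ones. Initiation factors outside the TOP list went both ways, with 7 of 29 higher and 10 lower (median -0.25, or -0.10 without Polysome library 1). EIF4H, a partner of the helicase eIF4A, had 84.6 to 86.1 CPM in Input and 241 to 297 CPM in Polysome (1.67, edgeR adjusted p 7.28e-08), and EIF4G2, which takes part in initiation without the cap, 318 to 367 and 712 to 833 CPM (1.20). EIF3C (-1.56) and EIF3D (-1.40), subunits of eIF3, were lower, and reads of EIF3C may be lost to its copy EIF3CL.

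Short-lived mRNAs of immediate early genes had 8 of 27 members higher (29.6%) and 1 lower (3.70%), against 23.4 and 15.9% of protein-coding genes. The class median was 0.15. The sign of this median rested on single libraries, since it was -0.07 without Polysome library 4, 0.28 and 0.40 without Polysome libraries 1 and 2, and 0.35 and 0.43 without Input libraries 1 and 4. KLF6 was at 1.96 and ZFP36L1, a protein that directs mRNA decay, at 1.73, while CCN1 (-0.78) was the lower one and its fractions overlapped. JUND (-0.44) missed the limit on the log2 FC. MYC had 69.4 to 91.9 CPM in Input and 62.0 to 83.9 CPM in Polysome (-0.18) and was not called. Polyamine genes had 1 of 8 higher and 2 lower (median -0.07, with a range of -0.27 without Polysome library 1 to -0.03 without library 3). The number higher was 0 without Input library 3 or Polysome library 1 or 2, and the number lower 1 without Polysome library 3. OAZ2, an antizyme, was at 0.51 and called in 5 of the 8 fits that left out 1 library, while ODC1, the first enzyme of the pathway, was at -0.54 and SRM, the spermidine synthase, at -0.62. OAZ1 (-0.12), SMS (0.17), SMOX (-0.02), SAT1 (-0.01) and AZIN2 (-0.48) were not called.

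GEMIN5, the target of the siRNA in the other libraries, was itself lower in Polysome in Ctrl cells. It had 14.5, 17.2, 14.6 and 18.8 CPM in Input and 5.12, 6.66, 7.08 and 8.47 CPM in Polysome, without overlap (log2 FC -1.25, standard error 0.16, adjusted p 1.51e-05 by quasi-likelihood test in edgeR). In the list of 10 mRNAs of the SMN complex, which assembles Sm proteins on small nuclear RNAs, 3 were lower and 0 higher (median -0.17). Among protein-coding genes 15.9% were lower and 23.4% higher. Beside GEMIN5 the lower ones in the list were GEMIN4 (-1.07) and GEMIN8 (-0.64), and GEMIN8 was at -0.49 without Polysome library 1. DDX20 (-0.49), GEMIN2 (-0.20), STRAP (-0.15), GEMIN6 (-0.08) and GEMIN7 (0.30) were not called, nor were SMN2 (0.23) and SMN1 (0.29), near-identical copies that may share reads. Of the 17 mRNAs of Sm and LSM proteins 1 was lower, LSM10 (-0.64), and 0 were higher, with a median of -0.13. Without Input library 4, Polysome library 1 or Polysome library 2 there were 3 lower, and without Polysome library 4 there were 0. The median was -0.20 without Polysome library 1, -0.225 without library 2 and -0.02 without library 3. LSM5 (-0.49), LSM6 (0.15) and LSM11 (0.26) were not called.

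Long noncoding RNAs had 211 of 983 lower (21.5%) and 74 higher (7.53%), against 18.9 and 20.9% of all genes tested. The share lower was thus near that of all genes, and the share higher was smaller. These RNAs were scarce, with a median level of 1.53 log2 CPM in Input siRNAG5. Protein-coding genes between 0.955 and 1.77 log2 CPM there had 38.4% higher, 6.42% lower and a median of 0.37. Against genes of that level, long noncoding RNAs were lower more often and higher less often. The median of the long noncoding RNAs was -0.20, which was -0.30 without Polysome library 1 and -0.13 without library 3. Host genes of small nucleolar RNAs had 17 of 23 members lower and 0 higher, with a median of -0.87. These transcripts often begin with an oligopyrimidine tract, and their exons encode no long protein. GAS5 had 511, 373, 495 and 467 CPM in Input and 144, 123, 88.5 and 102 CPM in Polysome (log2 FC -2.01, adjusted p 2.1e-07 by quasi-likelihood test in edgeR). SNHG6 was at -2.27 and SNHG5 at -2.23. SNHG30 (-0.14) and SNHG10 (-0.33) overlapped between the fractions, and without Polysome library 1 SNHG10 was called, at -0.51.

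The lowest long noncoding RNAs with a symbol were VPS13B-DT (-3.47), with 6.61 to 8.52 CPM in Input and 0.458 to 0.951 CPM in Polysome, and SUGT1-DT (-2.74). ENSG00000272599, without a symbol, was at -4.74 on chromosome 10. The highest with a symbol were ZNF584-DT (2.11), BAIAP2-DT (1.96), LINC00294 (1.81) and LINC02693 (1.68), and ENSG00000263731 on chromosome 17 was at 3.08. Of 8 cytoplasmic long noncoding RNAs 3 were lower, OIP5-AS1 (-2.14), MIR17HG (-1.26) and FGD5-AS1 (-0.59), and LINC01128 (0.55) was higher, though not without Input library 1. NORAD, which binds PUMILIO proteins, had 10.7 to 16.1 CPM in Input and 11.1 to 18.7 CPM in Polysome (0.29), and CYTOR (-0.35), LINC00467 (-0.26) and MIR4435-2HG (0.09) also overlapped. The counts for antisense and divergent transcripts rest on a stranded kit, and the strand setting of the counting is not given in the sources used here.

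Of 7 RNAs listed as kept in the nucleus, PVT1 (-1.60) and JPX (-0.86) were lower. TUG1 (1.76), with 3.496 to 5.36 CPM in Input and 11.2 to 16.5 CPM in Polysome, was higher. The annotation used here gives a coding region within this list, with a median of 462 bases, so the list is not purely noncoding. Where these RNAs lie in the cells was not measured. FTX (-0.61), LINC-PINT (-0.02) and NEAT1 (0.05) were not called. MALAT1 had 1.18, 0.613, 9.92 and 9.33 CPM in Input and 16.7, 7.93, 9.72 and 16.2 CPM in Polysome (1.27, edgeR adjusted p 0.0556). Its Input libraries 1 and 2 were low and 3 and 4 high, as were the reads of ALB (0, 0, 585 and 414), and the part of these libraries in its value was not tested. Of 16 RNAs without a poly(A) tail 2 were tested and 0 called, and RN7SL2, of the signal recognition particle, was at 0.31. In 3 groups of near-equal size by length, the shortest long noncoding RNAs (223 to 879 bases) had 95 of 328 lower and 8 higher with a median of -0.39, the middle group 67 of 327 lower and 15 higher with -0.22, and the longest group (1880 bases or more) 49 of 328 lower and 51 higher with -0.02.

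Across protein-coding genes the length of the 3′ UTR moved with the log2 FC more than the other lengths did, as a description over 11685 genes that are not independent. The Spearman rho was 0.46 for the 3′ UTR, 0.34 for the 5′ UTR, 0.36 for the whole transcript and 0.06 for the coding region, and 0.52, 0.31, 0.39 and 0.06 in siRNAG5 cells. Genes were then put in 10 bins of equal size for each measure. From the bin with the shortest 3′ UTRs (up to 227 bases) to the longest (4653 bases or more), the median log2 FC went from -0.37 to 0.37. In the first of these bins 430 of 1169 genes (36.8%) were lower and 33 higher, and in the last 86 were lower and 466 (39.9%) higher. The median stopped rising at the eighth bin (0.41, from 2416 bases). The difference between the end bins was 0.74, and in the single Polysome libraries it was 0.56, 0.56, 0.98 and 0.89. Among genes above the median of mean CPM alone it was 0.51.

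The 5′ UTR behaved in the same direction. The median was -0.17 in the bin of up to 30 bases and 0.59 in the bin of 446 bases or more, where 585 of 1169 genes (50.0%) were higher and 40 lower. The difference of 0.76 was 0.56, 0.49, 1.04 and 0.92 in the single libraries. Coding length, in contrast, gave -0.05 in the shortest bin (78 to 543 bases) and 0.12 in the longest (3432 bases or more), a difference of 0.17. In Polysome libraries 1 to 4 it was -0.27, -0.19, 0.59 and 0.55, so its sign was not shared by the libraries and it was smaller than their spread (SD 0.46). Both calls became more frequent with coding length, with 155 higher and 145 lower in the shortest bin and 338 higher and 241 lower in the longest. GC content had a rho of -0.17 and the number of exons one of -0.12.

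**Figure D4:**
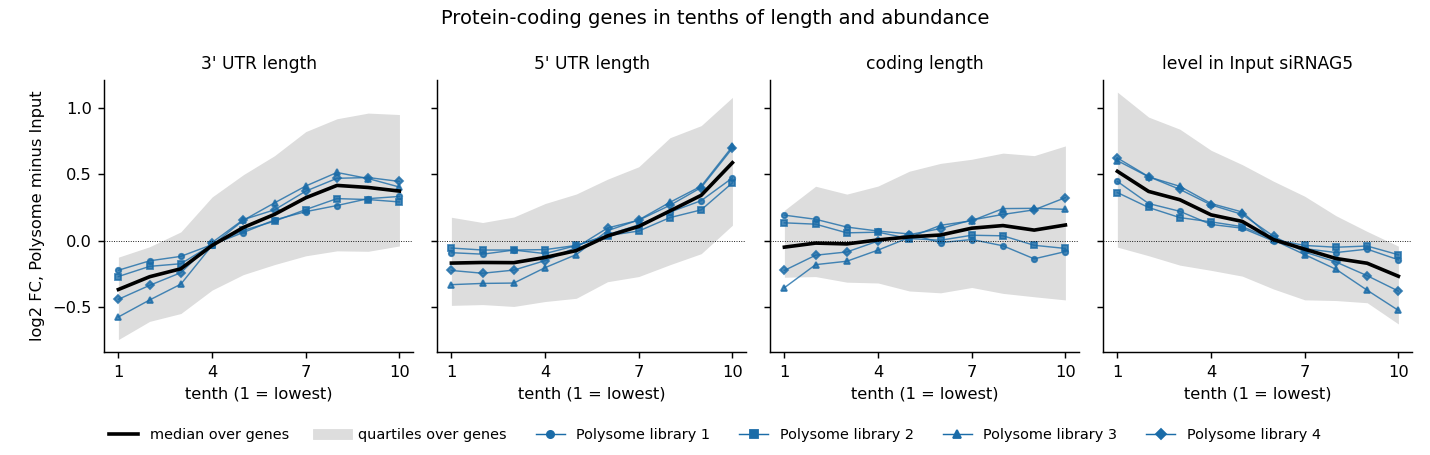
Median log2 FC of Polysome minus Input in 10 bins of equal size of 11685 protein-coding genes ordered by 3′ UTR length, 5′ UTR length, coding length and level in the Input siRNAG5 libraries. The black line is the median over genes in the fit of the 8 libraries, and each Polysome library is drawn beside it in blue. The medians rise with both UTR lengths, from -0.37 to 0.37 for the 3′ UTR, fall with the level, from 0.52 to -0.27, and change little with coding length, where libraries 1 and 2 slope downwards and libraries 3 and 4 upwards.

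The Input level moved in the opposite direction. To keep the level apart from the comparison, genes were ordered by their mean log2 CPM in the 4 Input siRNAG5 libraries. The median log2 FC went from 0.52 in the lowest bin, with 440 of 1169 genes higher and 36 lower, to -0.27 in the highest, with 43 higher and 374 lower. The difference was -0.79, and it was -0.59, -0.47, -1.13 and -1.002 in the single Polysome libraries. The Spearman rho was -0.39. A gene that is scarce in Input passed the filter on low counts more readily where it was high in Polysome, so the counts in the lowest bins and in the groups of low level can lean upwards by construction. Ordering genes by the mean of the 8 Ctrl libraries, which contains both fractions, gave a difference of -0.37, with 261 higher and 90 lower in the lowest bin (median 0.18). Without the ribosomal protein, TOP, mitochondrial and histone lists it was -0.75.

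3′ UTR length, upstream ATGs, level and coding length were then crossed in 3 groups each, of equal size for lengths and level. Genes with a short 3′ UTR (up to 762 bases) had medians of -0.33, -0.20 and -0.07 with 0, 1 and 2 or more upstream ATGs, and genes with a long one (2188 bases or more) had 0.19, 0.46 and 0.69. Of the 1076 genes with a long 3′ UTR and 2 or more upstream ATGs, 596 (55.4%) were higher and 31 lower. Among the 1879 genes with a long 3′ UTR and a low level, 992 (52.8%) were higher and 47 lower (median 0.68), and among the 696 with a long 3′ UTR and a high level 96 were higher and 123 lower (median -0.06).

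Among the 2041 genes with a short 3′ UTR and a high level, 695 (34.1%) were lower and 29 higher (median -0.30). Ribosomal protein and other TOP mRNAs were only a small part of these, since the 1973 others had 637 lower (32.3%) and a median of -0.29. Within those 1973, the 135 that begin with C and 4 pyrimidines had 60 lower (44.4%) and a median of -0.43, and the 1838 without such a start had 577 lower (31.4%) and a median of -0.28. In the fit over all 8 libraries, coding length went in different directions by 3′ UTR. With a short 3′ UTR the median went from -0.21 at short to -0.41 at long coding regions, where 462 of 1070 genes (43.2%) were lower. With a long 3′ UTR it went from 0.26 to 0.47. In siRNAG5 cells the medians went from -0.43 to -0.60 and from 0.27 to 0.44. Single libraries were not crossed in this way. Over all protein-coding genes they differed in the sign of the coding-length difference (SD 0.46).

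**Figure D5:**
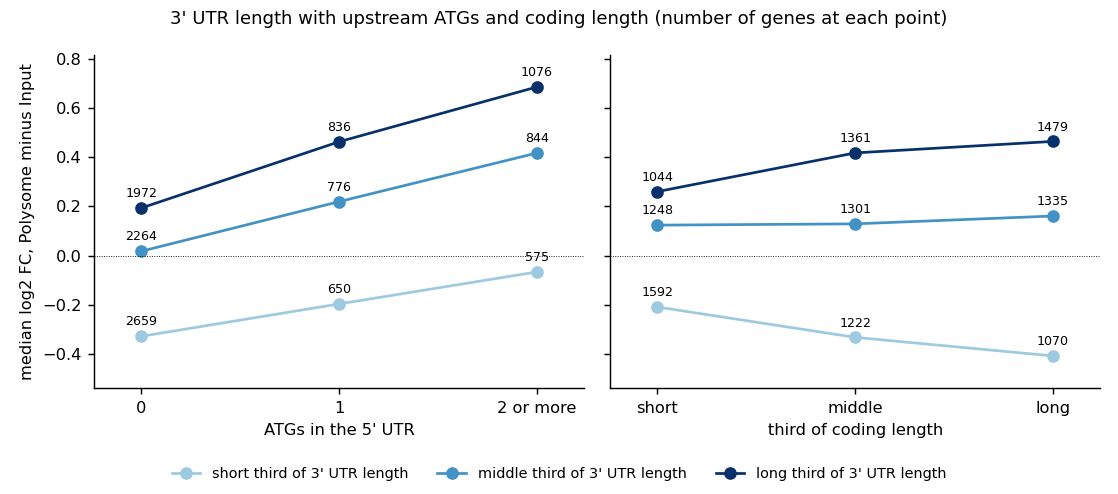
Median log2 FC of Polysome minus Input by the number of ATGs in the 5′ UTR (left) and by short, middle and long coding length (right), with 1 line for each of 3 groups of 3′ UTR length and the number of genes at each point. On the left all 3 lines rise, from -0.33 to -0.07 for short and from 0.19 to 0.69 for long 3′ UTRs, and on the right the line for short 3′ UTRs falls from -0.21 to -0.41 while that for long ones rises from 0.26 to 0.47. Single libraries are not drawn, and over all protein-coding genes they differed in the sign of the coding-length difference.

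In a linear description of the log2 FC over 11652 genes, all terms together held 31.6% of the variance. Taken alone, 3′ UTR length held 19.97%, the Input level 15.7%, 5′ UTR length 10.9%, the number of upstream ATGs 8.41%, GC content 2.17% and coding length 0.403%. With 1 term left out, the rest held 23.4% without 3′ UTR length and 27.1% without the level. They held 30.2% without coding length, 30.6% without 5′ UTR length and 30.9% without upstream ATGs. Beside the other terms, coding length had a slope of -0.093 per SD of its rank, and 5′ UTR length one of 0.098. The motif ATTTA, which occurs in AU-rich elements, was counted on the sense strand of the 3′ UTR. The 3001 genes without it (25.8%) had a median log2 FC of -0.23 and the 4704 with 4 or more copies (40.4%) one of 0.32, and long 3′ UTRs hold more copies by length alone. Within the short group of 3′ UTRs the median was -0.29 without and -0.26 with the motif, within the middle group 0.02 and 0.17, and within the long group 0.20 and 0.39. The bases around the start codon were scored for 2 positions, a purine 3 bases ahead and a G right after. Genes with 0, 1 and 2 matches had medians of 0.16, 0.05 and -0.02.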

How the data were processed

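The authors isolated RNA of cytoplasmic lysates (Input) and of pooled heavy gradient fractions (Polysome), made poly(A)-selected stranded libraries, aligned paired reads to GRCh38 with STAR 2.5.3a and counted uniquely aligned reads per gene with QoRTs, and the raw counts per gene were deposited. The strand setting of the counting is not given in the sources used here. Rows that name no gene were dropped, and reads on no annotated gene were 0.667 to 1.27% of a library. Here genes were filtered and TMM-scaled in edgeR 4.0.16 (R 4.3.3) and fitted with the quasi-likelihood test on the 8 Ctrl libraries with the fraction as the only term. Of 58302 gene identifiers, 13666 passed the filter on low counts, and 59 listed liver and plasma-protein genes were set aside, which left 13607. Calls required a log2 FC beyond 0.5 in size together with an adjusted p (Benjamini-Hochberg) under 0.05. CPM used a prior count of 2 only on the log2 scale. Lengths, UTRs and sequences are those of the canonical GENCODE transcript on GRCh38, which held 57532 of the identifiers, and the annotation used for counting may differ from it.

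The genes named were the 10 protein-coding genes at each end of the log2 FC with a mean of at least 1 CPM and no overlap between fractions, the 5 long noncoding RNAs at each end, of which those without a symbol were named only in part, the 2 highest and 2 lowest of each list, all members of lists of up to 12, and a set of genes fixed by name. A few genes that these rules would name are not reported here. The genes that carry a searched motif were named as well. Members and lists were chosen with earlier results of these data known. Alternatives were RLE size factors, no filter, DESeq2 1.42.0, the replicate number as a block, limma 3.58.1 voom with library weights, all 16 libraries in 1 fit, each library left out in turn, other limits, and other bins. The alternatives for 3′ UTR length and single genes, those for abundance other than its bins, and the bins without listed genes were added after the data had been seen. Scripts were tested on simulated data. The study took both fractions from individual lysates, but the sources used here do not say that equal replicate numbers mark 1 lysate, and the libraries did not show it, so the fit has no block and the blocked values are given in the closing section. With 4 libraries against 4 an exact permutation test of a single gene could not go below 0.0286. Figures were drawn with matplotlib 3.10.9, and tables were computed in Python 3.11.15 with numpy 2.4.6 and pandas 2.3.3.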

Additional observations from a re-analysis of the deposited data

Results flagged for a closer look

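In 334 groups of 4 libraries, 15 had a highest or lowest library that stood apart from the other 3 by Dixon's criterion, where chance gives about 1 in 20, or 16.7. Polysome library 1 was lowest for CCT3 (312 CPM, others 524 to 566), TPM3 (238 CPM, others 317 to 333) and NOP56 (91.6 CPM, others 125 to 131) and highest for ATF4 (1369.7 CPM, others 874 to 921). Input library 4 was lowest for RPL32 (5683 CPM, others 6214 to 6289) and CENPA (44.9 CPM, others 49.5 to 50.2) and highest for PFKP (63.1 CPM, others 51.0 to 52.8) and SEL1L (3.72 CPM, others 2.03 to 2.11). Input library 2 was lowest for DDIT3 (8.18 CPM, others 16.3 to 16.9) and FBXL19 (1.84 CPM, others 2.93 to 3.08). Input library 1 was highest for SMN2 (15.6 CPM, others 11.7 to 12.4) and AGAP9 (4.35 CPM, others 2.45 to 2.77), and Input library 3 lowest for GINS1 (7.16 CPM, others 9.33 to 9.75). Polysome library 3 was highest for FRS3 (1.02 CPM, others 0.503 to 0.543), and Polysome library 4 held the smallest share of reads on processed pseudogenes (0.332%, others 0.419 to 0.431%). Of 152 named genes compared, 0 moved in opposite directions in every Ctrl and every siRNAG5 library.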

How the results depend on the processing

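The numbers of genes higher and lower in Polysome were 2841 and 2566, and with a log2 FC limit of 1 they were 1337 and 1044. In the other alternatives, which included RLE size factors (2890 and 2472), DESeq2 (2837 and 2421) and voom with library weights (3179 and 2937), both counts stayed within 1.5 times, and leaving out 1 library gave 2599 to 3046 higher and 2309 to 2750 lower. The difference between the end bins of 3′ UTR length was 0.74 and 0.51 among genes above the median of mean CPM, and 0.68 to 0.83 with 1 library left out. That of abundance was -0.79 and -0.37 with bins by the mean of the 8 libraries, and -0.94 to -0.70 with 1 library left out. That of coding length was 0.17, with a range of 0.03 to 0.31 with 1 library left out, 0.41 with voom and -0.06 among genes above the median of mean CPM. Of 152 named genes, 132 kept their call in every alternative, 11 lost it in at least 1, 9 gained one in at least 1 and 0 reversed. Of 36 class medians under 14 alternatives, 500 differed by less than the spread of the Polysome libraries, 4 by more, and 5 changed sign, which were medians of nuclear-retained RNAs and of immediate early genes. The causes were not tested.

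The replicate number as a block gave 2840 higher and 2690 lower, 0.75 for 3′ UTR length, 0.17 for coding length and -0.81 for abundance. Input and Polysome libraries of the same number had correlations of their deviations of 0.0217, 0.221, -0.103 and 0.21, so the numbers are not evidence of pairing. With the block DDX20 (-0.51) and MALAT1 (1.55) gained a call and INA (0.51) lost one. The few reads of scarce transcripts limit the precision of the largest differences.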
